A study of Mus musculus with 12 samples.

Results

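Expression of 35 mouse genes of glycolysis and of the hypoxia response was followed in cultured neurospheres and brains of mice in which Atp6ap2, the gene of the (pro)renin receptor, was targeted, and in their controls. The genes were taken by symbol from a list of glucose transporters, glycolytic enzymes, lactate and pyruvate handling proteins, oxygen sensors and genes that low oxygen is known to induce. Of the 35 symbols, 34 had a row of their own among the 25655 genes listed. Aldoa, the aldolase of the pathway, was listed only as 2 suffixed rows, so its values are given apart and it is not counted among the 34.

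RNA was sequenced from 12 libraries in 4 groups of 3. The groups were neurospheres labelled (P)RR_CKO, neurospheres labelled wild type, whole brains labelled (P)RR_CKO and whole brains labelled wild type, and they are called CKO and control here. Neurospheres are floating clusters of neural stem cells and their progeny, grown here as primary cultures from the forebrain at embryonic day 16, while brains were taken at embryonic day 15. All samples were labelled male and C57BL/6J. The sample titles carry fy/cre for CKO and fy/- for control samples, and the study title calls the loss of the receptor specific to neural stem cells. No label names the promoter that drives Cre. Nor do they say whether replicates were separate animals, litters or cultures, so p-values measure only the spread between these libraries, which may be technical.

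Glycolysis splits glucose into pyruvate in the cytosol. Hexokinase traps glucose as its phosphate, phosphofructokinase commits it to the pathway, and pyruvate kinase makes ATP in the last step. Pyruvate is then reduced to lactate by lactate dehydrogenase or enters mitochondria through pyruvate dehydrogenase. Under low oxygen the prolyl hydroxylases that mark HIF1A for destruction slow down, and HIF1A with its partner ARNT then binds short DNA elements near glycolytic and other genes. Proliferating neural progenitors are known for a high rate of glycolysis, and neurons for a greater use of mitochondria.

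Over exons, the neurosphere libraries held 12382975 to 18636787 reads and the brain libraries 5669338 to 6675874. Introns took 7.64 to 14.1% of gene reads in neurospheres and 63.8 to 65.5% in brains. Levels are given as CPM, counts scaled to the size of each library, apart for neurospheres and brains. Atp6ap2, which encodes the receptor, had 62.2, 48.6 and 54.0 CPM in CKO neurospheres, against 96.9, 96.6 and 95.1 CPM in control neurospheres (log2 fold change -0.81 ± 0.11 SE, adjusted p = 0.00965). In CKO brains it had 60.6, 67.6 and 64.8 CPM, against 64.7, 67.1 and 78.3 CPM in control brains (log2 fold change -0.12 ± 0.09 SE, adjusted p = 0.792). Control neurosphere 1 stood apart, with 1 read over 4 Y-linked genes although it is labelled male, against 1453 to 2992 reads in the other libraries. Results for neurospheres are therefore also given without it.

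RefSeq promoter windows show the letters that HIF complexes are known to read. The window runs from 250 bases before to 50 bases after a transcript's start (GRCm38.p6), and 31 of the 34 genes had one or more. Ndrg1, Slc2a3 and Bnip3l had none. The core of a hypoxia response element, ACGTG or GCGTG, was searched on both strands, and matches that overlap were merged into 1 place. Either motif stood in 38 of 47 windows of these genes (80.9%), against 43.8% of all 32851 windows in the table. The palindrome CACGTG, which contains ACGTG on each strand and is also the E-box of other factors, stood in 6 of them (12.8%), against 7.15% of all windows. These shares test nothing, since the list was made in part of genes that low oxygen is known to induce. Windows of the same gene can overlap, as for Ak4, Eno1 and Pfkm, so that 1 place can count more than once. The windows were not matched for base composition. A match is a description of the letters and not a bound site. Below are the 250 bases before the start of Ldha (the first of its 2 windows), Slc16a1 and Hk2, which were higher in CKO neurospheres, of Ldhb, which was lower, and of Bnip3, which spread widely between libraries of the same group. Motif matches are in capitals, and a match on the other strand reads CACGT or CACGC.
Ldha, chr7:46845554-46845803, strand plus: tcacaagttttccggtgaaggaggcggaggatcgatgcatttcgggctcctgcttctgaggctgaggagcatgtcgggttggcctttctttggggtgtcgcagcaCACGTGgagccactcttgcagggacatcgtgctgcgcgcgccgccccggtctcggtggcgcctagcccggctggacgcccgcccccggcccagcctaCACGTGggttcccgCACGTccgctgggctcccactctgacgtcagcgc
Slc16a1, chr3:104638414-104638663, strand plus: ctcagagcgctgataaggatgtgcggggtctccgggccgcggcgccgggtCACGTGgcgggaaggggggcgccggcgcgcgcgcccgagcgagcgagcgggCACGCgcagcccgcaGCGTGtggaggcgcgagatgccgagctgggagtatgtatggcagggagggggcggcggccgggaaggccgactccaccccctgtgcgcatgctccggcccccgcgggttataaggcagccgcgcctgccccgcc
Hk2, chr6:82774455-82774704, strand minus: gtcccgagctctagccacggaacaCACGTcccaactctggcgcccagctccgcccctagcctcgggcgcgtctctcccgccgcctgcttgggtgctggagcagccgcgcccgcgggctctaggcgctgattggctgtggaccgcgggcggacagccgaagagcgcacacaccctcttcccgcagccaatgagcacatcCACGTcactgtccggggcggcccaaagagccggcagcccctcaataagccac
Ldhb, chr6:142507958-142508207, strand minus: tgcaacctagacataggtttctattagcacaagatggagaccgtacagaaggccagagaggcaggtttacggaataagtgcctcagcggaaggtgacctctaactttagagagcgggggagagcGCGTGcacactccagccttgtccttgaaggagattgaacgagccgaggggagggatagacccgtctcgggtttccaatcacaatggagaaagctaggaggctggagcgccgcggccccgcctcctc
Bnip3, chr7:138909507-138909756, strand minus: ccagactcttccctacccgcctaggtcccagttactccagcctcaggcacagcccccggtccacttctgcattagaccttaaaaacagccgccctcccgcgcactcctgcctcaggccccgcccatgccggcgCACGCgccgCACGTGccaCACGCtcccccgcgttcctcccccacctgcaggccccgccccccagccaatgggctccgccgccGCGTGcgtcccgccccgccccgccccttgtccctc
Within the printed bases the motifs stood at 3 places for Ldha, 3 for Slc16a1, 2 for Hk2, 1 for Ldhb and 4 for Bnip3. In its whole window Bnip3, whose product marks mitochondria for removal, held 4 places and Ldha held 5.

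In CKO neurospheres, several genes of the later steps of glycolysis and of lactate production and transport rose, while Ldhb and Mxi1 fell. Hk2, Gapdh, Eno1, Pkm, Ldha, Slc16a1, Pdk3 and Pdha1 were higher than in control neurospheres, between 1.28-fold for Pdha1 and 3.58-fold for Hk2. Ldhb and Mxi1 were lower, at 0.600 and 0.496 of the control level. By edgeR's quasi-likelihood test, with Benjamini-Hochberg adjustment over all 13316 genes tested and a threshold of 0.05, 8 of 34 genes were called higher (23.5%) and 2 lower (5.88%). Of all genes tested, 14.7% were called higher and 12.0% lower. The median log2 fold change, CKO over control, was 0.34 over the 34 genes and -0.02 over all genes. All adjusted p-values below come from this test unless another is named. Together the 34 genes took 0.759, 1.03 and 0.804% of exon reads in CKO neurospheres, against 0.567, 0.571 and 0.677% in control neurospheres.

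**Figure D1:**
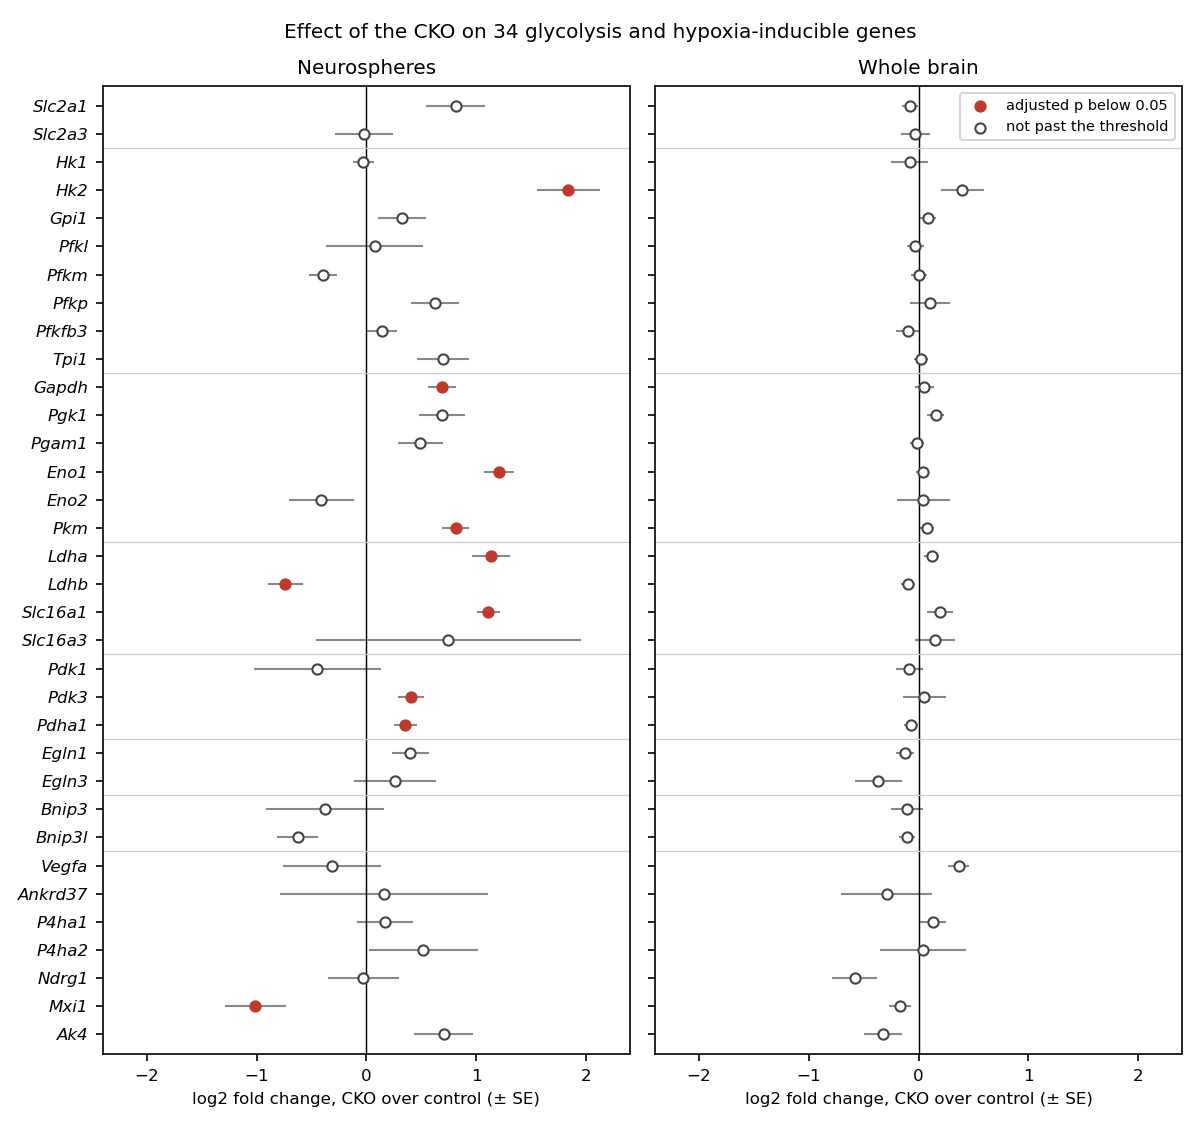
Log2 fold changes of CKO over control (± SE) for 34 genes, grouped by role from glucose transporters at the top to other hypoxia-inducible genes at the bottom, in neurospheres on the left and whole brain on the right. Filled points passed the threshold: 8 higher and 2 lower in neurospheres and 0 in brain, where most points lie close to 0.

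The calls depended on which libraries entered. Without control 1, 7 of the 34 genes were called higher (20.6%) and 4 lower (11.8%), and Pdk3 and Pdha1 were not among them. Of all genes tested without it, 21.1% were called higher and 17.7% lower, so the share of these genes called higher was near that of all genes. Without both libraries numbered 1, all 10 calls stood, within 11 higher (32.4%) and 4 lower (11.8%), while 28.1% of all genes were called higher and 27.3% lower. Without control 3, edgeR called 0 of all 13459 genes tested, although 16 of the 34 genes had an unadjusted p below 0.05, against 31.0% of all genes. Without CKO 2 it called 0 of 13497, with 14 of the 34 genes below 0.05 unadjusted, against 31.7% of all. The median log2 fold change of the 34 genes was 0.0182 without CKO 2 and 0.45 without control 3. Each of the 10 genes kept its direction in all 6 leave-out fits. With upper-quartile scaling in place of TMM, 6 genes were called higher and 4 lower, against 13.1% and 13.2% of all genes.

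Hexokinase 2, the inducible form of the enzyme that starts glycolysis, had the largest rise of the 34 genes. Hk2 stood at 52.5, 86.2 and 49.5 CPM in CKO neurospheres, against 16.5, 13.4 and 22.7 CPM in control neurospheres. All CKO libraries lay above all control libraries, with CKO 2 the highest (log2 fold change 1.84 ± 0.29, ± SE, adjusted p = 0.0121). The call was lost without control 3 (0.057) and CKO 2 (0.0569), with those adjusted p-values in parentheses. Hk1, the form that most brain cells use constantly, stood at 165, 196 and 171 CPM in CKO neurospheres, against 189.7, 175 and 179 CPM in control neurospheres, and its groups overlapped (-0.03 ± 0.10, adjusted p = 0.846). Measured as reads per kilobase, Hk2 took 25.1, 31.5 and 23.2% of the sum of both hexokinases in CKO neurospheres, against 8.37, 7.43 and 11.7% in control neurospheres.

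Glucose uptake genes did not pass the threshold. Slc2a1, the glucose transporter of progenitors and blood vessels, stood at 40.4, 63.2 and 31.9 CPM in CKO neurospheres, against 28.7, 21.4 and 27.1 CPM in control neurospheres. Its groups did not overlap, but the adjusted p was 0.0649 (log2 fold change 0.81 ± 0.27). Slc2a3, the high-affinity transporter typical of neurons, stood at 31.6, 56.8 and 28.6 CPM in CKO neurospheres, against 38.8, 36.8 and 43.3 CPM in control neurospheres, and the groups overlapped. Groups that do not overlap were seen for 12 of the 34 genes on the higher side and 4 on the lower side, against 25.3% and 22.8% of all genes tested. Slc2a1 took 61.6, 58.3 and 58.3% of reads per kilobase of the pair in CKO neurospheres and 48.2, 42.2 and 44.1% in control neurospheres.

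The middle steps, from glucose phosphate to triose phosphate, held no other call. Gpi1, the isomerase after hexokinase, averaged 684 ± 199 CPM in CKO neurospheres and 547 ± 78.6 CPM in control neurospheres (SD, n = 3 each; adjusted p = 0.298). The 3 phosphofructokinase genes, which encode the committing enzyme, went in different directions without passing. Pfkl, the liver form, stood at 63.6, 181 and 106 CPM in CKO neurospheres, against 62.5, 122 and 148 CPM in control neurospheres, a wide spread in both groups. Pfkm, the muscle form, stood at 144, 160.4 and 153 CPM in CKO neurospheres, against 165, 215 and 220.5 CPM in control neurospheres, with every CKO library below every control library (log2 fold change -0.39 ± 0.13, adjusted p = 0.065). Pfkp, the platelet form, stood at 87.2, 74.04 and 53.4 CPM in CKO neurospheres, against 56.99, 39.6 and 42.5 CPM in control neurospheres (adjusted p = 0.076). Its 3 values in CKO neurospheres reached from inside the control range to above it. Pfkfb3, which makes the activator of phosphofructokinase, averaged 74.6 ± 13.7 CPM in CKO neurospheres and 67.7 ± 2.92 CPM in control neurospheres (adjusted p = 0.478). Tpi1, the triose phosphate isomerase, averaged 493 ± 129 CPM in CKO neurospheres and 304 ± 66.2 CPM in control neurospheres (adjusted p = 0.0696).

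Aldolase A sits between these steps and is listed in 2 rows, on different identifiers. The row of ENSMUSG00000030695, which held nearly all its reads, had 732, 931 and 703 CPM in CKO neurospheres, against 544, 397 and 520.5 CPM in control neurospheres. The row of ENSMUSG00000114515 stayed at or below 1.60 CPM in every neurosphere library. The first was called higher (log2 fold change 0.70 ± 0.17, adjusted p = 0.0288).

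From triose phosphate to pyruvate, 3 of 6 genes rose. Gapdh, which oxidises the triose and makes NADH, stood at 174, 196 and 167 CPM in CKO neurospheres, against 99.9, 105 and 128 CPM in control neurospheres. Eno1, the enolase of most cells, stood at 1479.6, 1764 and 1347 CPM in CKO neurospheres, against 694, 593 and 696 CPM in control neurospheres. Pkm, the pyruvate kinase, stood at 1511, 1895 and 1680.2 CPM in CKO neurospheres, against 959.8, 897 and 1039 CPM in control neurospheres. For each of the 3 genes every CKO library was above every control library. The log2 fold changes were 0.69 ± 0.12 for Gapdh (adjusted p = 0.0153), 1.21 ± 0.14 for Eno1 (adjusted p = 0.00847) and 0.81 ± 0.12 for Pkm (adjusted p = 0.0113). The Gapdh call was lost without control 2 (0.0641), control 3 (0.057) and CKO 2 (0.0709), the Eno1 call without control 3 (0.057) and CKO 2 (0.0569) and the Pkm call without control 3 (0.0576) and CKO 2 (0.0608), each with its adjusted p.

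The kinase and mutase between Gapdh and enolase did not pass, with positive log2 fold changes. Pgk1, which makes the first ATP of the pathway, stood at 624, 981 and 766 CPM in CKO neurospheres, against 418, 447 and 605 CPM in control neurospheres (log2 fold change 0.69 ± 0.21, adjusted p = 0.0549). Pgam1 stood at 465, 644 and 473 CPM in CKO neurospheres, against 294, 375 and 455 CPM in control neurospheres (adjusted p = 0.111). Eno2, the neuronal enolase, stood at 26.6, 16.1 and 20.1 CPM in CKO neurospheres, against 39.6, 21.8 and 22.03 CPM in control neurospheres, and its groups overlapped. Eno1 took 98.5, 99.2 and 98.8% of enolase reads per kilobase in CKO neurospheres and 95.5, 97.05 and 97.5% in control neurospheres. Only 24.1 to 27.3% of Eno1 exon reads were uniquely placed, the lowest share of the 34 genes, so its level is uncertain. On uniquely placed reads its log2 fold change was 1.18 ± 0.13 (adjusted p = 0.00849).

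**Figure D2:**
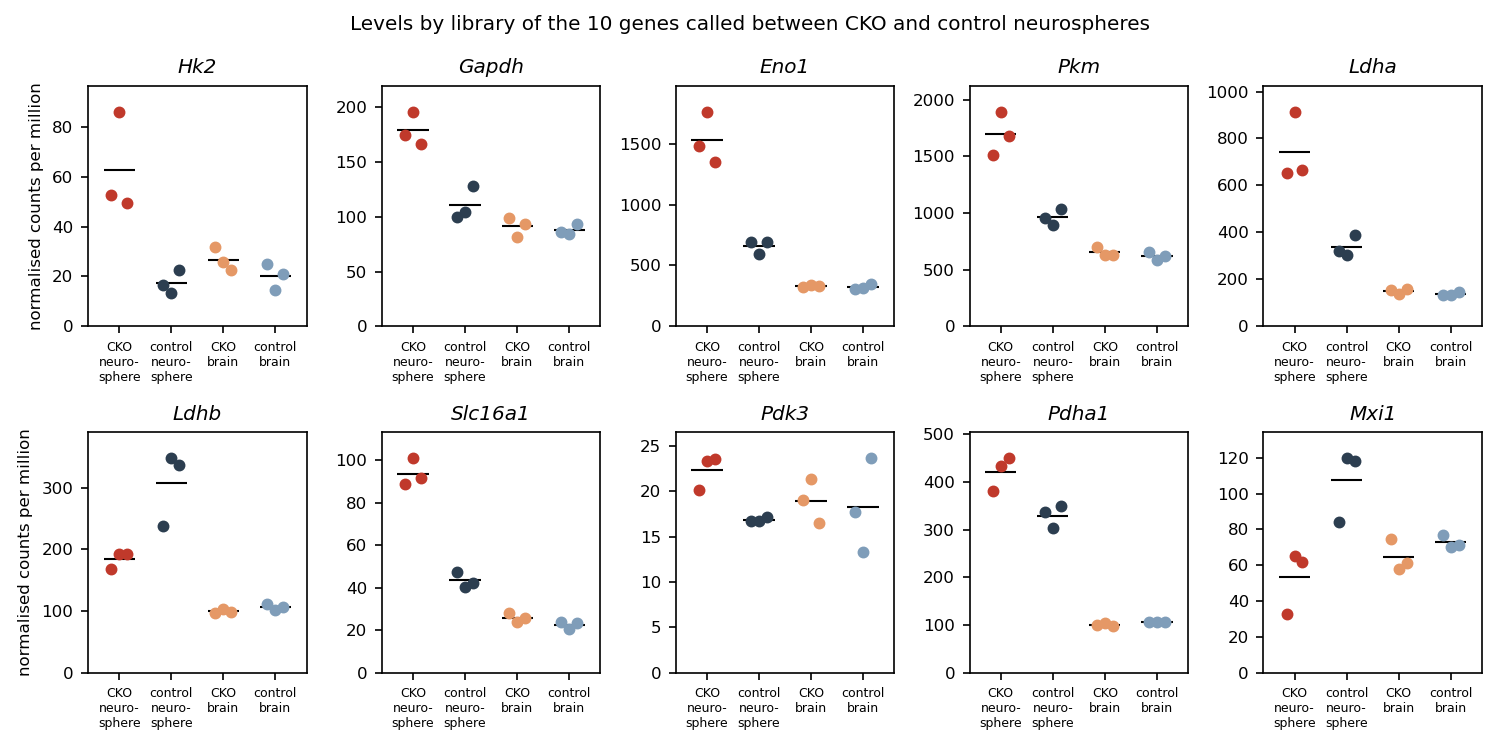
Normalised CPM in each library (points) and the mean of each group of 3 (horizontal lines) for the 10 genes called between CKO and control neurospheres. The 3 CKO neurosphere points of Eno1, Pkm, Ldha and Slc16a1 lie above all control neurosphere points, those of Ldhb and Mxi1 lie below, and the 2 brain groups lie close together for Eno1, Pkm, Ldha and Ldhb.

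The 2 lactate dehydrogenase genes moved in opposite directions. Ldha, whose subunit is known to favour making lactate from pyruvate, stood at 651, 914 and 665 CPM in CKO neurospheres, against 322, 304 and 388 CPM in control neurospheres. Ldhb, whose subunit is known to favour the reverse reaction, stood at 168, 193 and 192 CPM in CKO neurospheres, against 237, 348 and 337 CPM in control neurospheres. No library crossed between groups for either gene. Ldha rose by 1.14 ± 0.17 on the log2 scale (adjusted p = 0.0113), and Ldhb changed by -0.74 ± 0.16 (adjusted p = 0.0229). Per kilobase, Ldha made up 69.9, 73.9 and 67.4% of the pair in CKO neurospheres, against 44.9, 34.3 and 40.8% in control neurospheres. Ldha was thus the larger part in every CKO library and the smaller part in every control library. The Ldha call was lost without control 3 (0.057) and CKO 2 (0.0569). The Ldhb call was lost without control 2 (0.0821), control 3 (0.0889), CKO 1 (0.0541), CKO 2 (0.0815) and CKO 3 (0.0629), so that it stood in 1 of 6 leave-out fits.

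**Figure D3:**
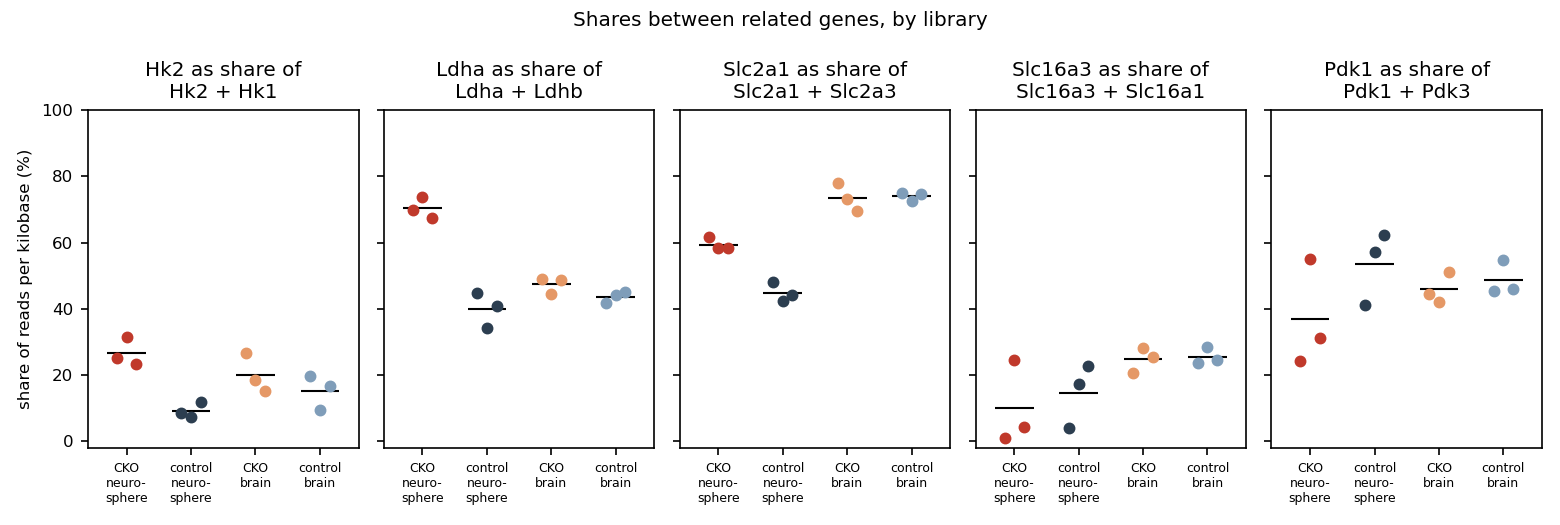
Share of reads per kilobase that 1 gene of a related pair takes in each library (points, with group means as horizontal lines), for 5 pairs in 4 groups. Ldha takes 67.4 to 73.9% in CKO neurospheres, above all other libraries, while Slc16a3 and Pdk1 spread widely within each neurosphere group.

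Monocarboxylate transporters carry lactate and pyruvate across the cell membrane. Slc16a1, the widely expressed transporter MCT1, stood at 88.9, 101 and 91.6 CPM in CKO neurospheres, against 47.6, 40.2 and 42.5 CPM in control neurospheres, with no overlap (log2 fold change 1.11 ± 0.10, adjusted p = 0.00754). Its call was lost without control 3 (0.057) and CKO 2 (0.0569). Slc16a3, the hypoxia-inducible exporter MCT4, stood at 0.904, 34.7 and 4.40 CPM in CKO neurospheres, against 1.99, 8.87 and 13.2 CPM in control neurospheres. CKO 2 was the highest of the 6 libraries and CKO 1 the lowest, and no difference between groups could be shown (0.75 ± 1.21, adjusted p = 0.663). By the listed coordinates Slc16a3 overlaps Csnk1d, and no source used here gives the strand setting of the counting, so reads of the 2 genes may not be told apart. To differing degrees the same limit holds for Gapdh with Iffo1, Tpi1 with Spsb2, Pfkm with Senp1 and Pfkp with Pitrm1. It also holds for Pdha1 with Map3k15, Mxi1 with Gm10197, Ankrd37 with Lrp2bp and Ufsp2, and both rows of Aldoa with Tlcd3b. Over all libraries Csnk1d held 24635 exon reads against 1334 of Slc16a3, and Pitrm1 12904 against 8059 of Pfkp. By contrast, Gm10197 held 3 against 9203 of Mxi1, Map3k15 415 against 36052 of Pdha1 and Spsb2 1009 against 39611 of Tpi1.

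At the entry of pyruvate into mitochondria, Pdha1 and Pdk3 rose by small amounts. Pdha1, the catalytic subunit of pyruvate dehydrogenase, stood at 381, 435 and 450.1 CPM in CKO neurospheres, against 336, 304 and 349 CPM in control neurospheres (log2 fold change 0.36 ± 0.10, adjusted p = 0.0475). Pdk3, a kinase that switches the enzyme off, stood at 20.2, 23.3 and 23.6 CPM in CKO neurospheres, against 16.7, 16.8 and 17.2 CPM in control neurospheres (log2 fold change 0.40 ± 0.12, adjusted p = 0.0474). Groups did not overlap for either gene, but both adjusted p-values lay just under 0.05. The Pdha1 call was lost without control 1 (0.0514), control 2 (0.167), control 3 (0.112), CKO 2 (0.159) and CKO 3 (0.134), and the Pdk3 call without control 1 (0.0616), control 2 (0.144), control 3 (0.143), CKO 2 (0.17) and CKO 3 (0.136). Both were also lost with RLE scaling (0.0519 for Pdha1 and 0.0512 for Pdk3), upper-quartile scaling (0.0596 and 0.0581), no filter on low counts (0.0641 and 0.0717) and junction reads (0.0709 and 0.117). The fit of all 12 libraries lost Pdk3 alone (0.0837), as did a fit with the replicate number as a block (0.0657). Pdk1, the kinase known to respond to HIF1A, stood at 15.8, 69.9 and 26.2 CPM in CKO neurospheres, against 28.6, 55.05 and 69.4 CPM in control neurospheres. Its range within each group was wider than the difference between the groups (-0.45 ± 0.58, adjusted p = 0.583).

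Neither prolyl hydroxylase gene and neither mitophagy receptor gene was called. Egln1, the main oxygen sensor that hydroxylates HIF1A, stood at 124, 165 and 113 CPM in CKO neurospheres, against 88.4, 106 and 109.7 CPM in control neurospheres (adjusted p = 0.114). Egln3, a hydroxylase that HIF1A itself induces, stood at 18.7, 37.96 and 20.7 CPM in CKO neurospheres, against 13.2, 22.8 and 28.8 CPM in control neurospheres (adjusted p = 0.625). Bnip3 stood at 16.4, 64.6 and 24.4 CPM in CKO neurospheres, against 27.8, 49.0 and 60.5 CPM in control neurospheres, with CKO 1 the lowest and CKO 2 the highest of the 6 libraries (adjusted p = 0.622). Bnip3l, its relative known from the clearance of mitochondria in red blood cells, averaged 103 ± 19.9 CPM in CKO neurospheres and 159 ± 28.1 CPM in control neurospheres (log2 fold change -0.63 ± 0.19, adjusted p = 0.0516).

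Among 7 other hypoxia-inducible genes, Mxi1 alone passed. Mxi1, which encodes an antagonist of MYC, stood at 33.02, 65.02 and 61.6 CPM in CKO neurospheres, against 83.95, 119.7 and 118 CPM in control neurospheres (log2 fold change -1.01 ± 0.28, adjusted p = 0.0405). Its groups did not overlap, and the call was lost without control 2 (0.119), control 3 (0.125), CKO 2 (0.0811) and CKO 3 (0.0774). Vegfa, the growth factor of blood vessels, stood at 72.8, 173 and 80.3 CPM in CKO neurospheres, against 78.1, 123 and 203 CPM in control neurospheres (adjusted p = 0.625). P4ha1 and P4ha2 encode collagen prolyl hydroxylase subunits. P4ha1 stood at 46.4, 93.1 and 63.95 CPM in CKO neurospheres, against 52.4, 59.9 and 68.9 CPM in control neurospheres. P4ha2 stood at 3.48, 7.32 and 7.65 CPM in CKO neurospheres, against 2.14, 3.71 and 6.97 CPM in control neurospheres. Both overlapped between groups (adjusted p = 0.643 for P4ha1 and 0.456 for P4ha2). Ankrd37, a HIF1A target, was low, with 0.556, 3.19 and 0.927 CPM in CKO neurospheres and 0.153, 1.45 and 2.63 CPM in control neurospheres (adjusted p = 0.911). It held 246 exon reads over the 12 libraries, against 3500 of Lrp2bp and Ufsp2, which overlap it. Ndrg1, a stress-induced gene, averaged 19.4 ± 8.65 CPM in CKO neurospheres and 19.8 ± 3.86 CPM in control neurospheres (adjusted p = 0.959). Ak4, a mitochondrial adenylate kinase, averaged 67.3 ± 17.4 CPM in CKO neurospheres and 41.4 ± 10.8 CPM in control neurospheres (adjusted p = 0.0939).

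Within each neurosphere group, the same libraries held the high and the low values for many of these genes. CKO 2 was the highest CKO library for 28 of the 34 genes, against 24.3% of all genes tested, and CKO 1 the lowest for 24 of 34, against 41.9%. Control 3 was the highest control library for 25 of 34, against 25.4%, and control 1 the lowest for 21 of 34, against 41.9%. The SD over 3 libraries, on the log2(CPM + 0.1) scale, had a median of 0.38 over the 34 genes in CKO neurospheres and 0.28 in control neurospheres. Over all genes tested these medians were 0.17 and 0.18. Slc16a3, Pdk1, Bnip3 and Ankrd37 had an SD above 1 in CKO neurospheres, as did 2.34% of all genes tested. Slc16a3 and Ankrd37 also did in control neurospheres, against 3.59% of all genes.

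For the genes that spread most, the fold change moved with the library left out. Without CKO 2 the log2 fold change of Slc16a3 was -1.61, and without control 1 it was 0.29. For Ankrd37 these values were -0.94 without CKO 2 and -0.36 without control 1. Pdk1 had -0.08 without CKO 1 and -1.29 without CKO 2, and Bnip3 -0.03 and -1.17. None of these values passed the threshold. CKO 2 was also the deepest neurosphere library, at 18636787 exon reads, and control 1 had the highest intron share, at 14.1%. The part of depth and RNA composition in this spread was not tested.

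**Figure D4:**
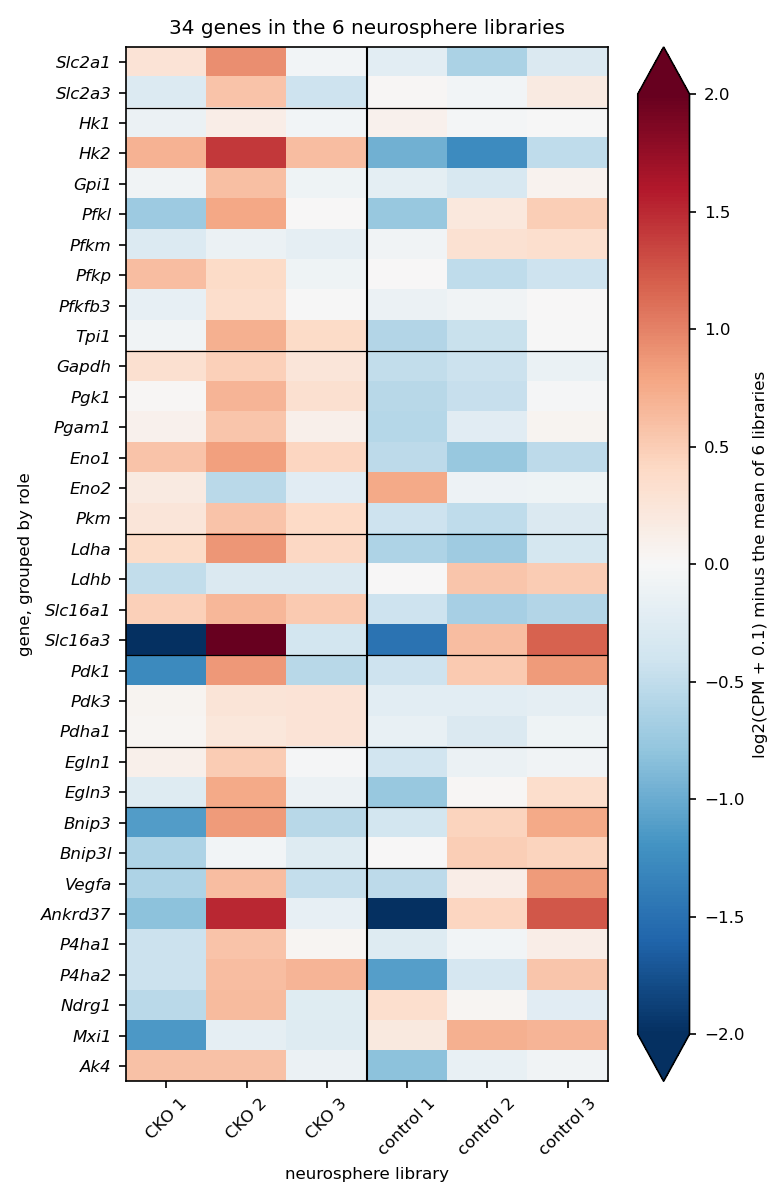
Level of each of 34 genes in the 6 neurosphere libraries, as log2(CPM + 0.1) minus the mean of the 6 (red above, blue below, colours saturate at 2), with CKO libraries left of the line and rows grouped by role. Hk2, Eno1, Ldha and Slc16a1 split by group, while Slc16a3, Pdk1, Bnip3, Vegfa and Ankrd37 are high in CKO 2 and control 3 and low in CKO 1 and control 1.

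Some markers of cell state and cell type were called between CKO and control neurospheres. Beside the counts below stand the 14.7% higher and 12.0% lower of all genes tested. In a bulk library, fewer cells of a type and less RNA per cell cannot be told apart. All 8 proliferation markers were called higher in CKO neurospheres, with a summed level of 2504 to 2579 CPM, against 529 to 1329.6 CPM in control neurospheres. Oligodendrocyte lineage markers, 5 of 8 called lower, summed to 1523 to 1706 CPM in CKO and 1826 to 2942 CPM in control neurospheres. Astrocyte markers, 2 of 7 called lower, summed to 672 to 1442 CPM in CKO and 1142 to 3969 CPM in control neurospheres. Of 8 neuronal markers, 4 were called lower and 1 higher (1193 to 1823 CPM in CKO and 1874 to 2189 CPM in control neurospheres). Stem cell and radial glia markers, 0 of 8 called, summed to 7979.7 to 8452 CPM in CKO neurospheres and 6598 to 7667 CPM in control neurospheres. Pericyte and fibroblast markers, 2 of 8 called higher, summed to 50.8 to 1096 CPM in CKO and 23.8 to 56.1 CPM in control neurospheres, the top value being CKO 3. The part of these shifts in the changes of Hk2, Eno1, Ldha, Ldhb and the others was not tested.

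In whole brain none of the 34 genes was called between CKO and control. Atp6ap2 itself was not called there either (log2 fold change -0.12 ± 0.09, adjusted p = 0.792). Of all 13557 genes tested, 0.243% were called higher and 0.199% lower. Vegfa and Ndrg1 had an unadjusted p below 0.05, 2 of 34 against 8.76% of all genes, and DESeq2 called 0 as well. The median log2 fold change was -0.00555 over the 34 genes and 0.00321 over all genes, and single genes ran from -0.58 for Ndrg1 to 0.40 for Hk2. Vegfa stood at 81.1, 64.4 and 78.0 CPM in CKO brains and 54.4, 59.6 and 59.3 CPM in control brains, with no overlap (log2 fold change 0.37 ± 0.10, adjusted p = 0.19). Ndrg1 stood at 13.2, 18.3 and 20.7 CPM in CKO brains and 19.4, 28.6 and 30.4 CPM in control brains (log2 fold change -0.58 ± 0.20, adjusted p = 0.418).

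The genes that rose in CKO neurospheres did not pass in brain, where Hk2 had the largest of their log2 fold changes. Hk2 had 31.7, 25.7 and 22.6 CPM in CKO brains and 24.9, 14.6 and 20.96 CPM in control brains. Gapdh had 99.3, 81.5 and 93.1 CPM in CKO brains and 86.3, 83.9 and 93.5 CPM in control brains. Eno1 had 324, 336 and 332 CPM in CKO brains and 309, 311 and 346 CPM in control brains. For these 3 genes the CKO and control brains overlapped. Pkm had 696, 632 and 629 CPM in CKO brains and 655, 582 and 622 CPM in control brains. Ldha had 155, 137 and 157 CPM in CKO brains and 134, 134 and 145 CPM in control brains. Slc16a1 had 28.1, 23.9 and 25.9 CPM in CKO brains and 23.8, 20.8 and 23.5 CPM in control brains. Slc16a1 was higher in each CKO brain than in every control brain, with an adjusted p of 0.729, and Pkm and Ldha overlapped. The log2 fold change of Hk2 was 0.40 ± 0.20 (adjusted p = 0.629), and those of the other 5 genes lay between 0.04 for Eno1 and 0.19 for Slc16a1.

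Ldhb and Mxi1, which fell in CKO neurospheres, did not pass in brain. Ldhb had 97.3, 103 and 98.7 CPM in CKO brains and 112, 101 and 106 CPM in control brains. Mxi1 had 74.8, 58.0 and 61.3 CPM in CKO brains and 76.9, 70.3 and 71.1 CPM in control brains. Pdha1 had 99.5, 105 and 97.8 CPM in CKO brains and 106, 106 and 106 CPM in control brains. For Pdha1 every CKO brain was just below every control brain (adjusted p = 0.854), while Ldhb and Mxi1 overlapped. Pdk3 had 19.04, 21.4 and 16.5 CPM in CKO brains and 17.7, 13.3 and 23.6 CPM in control brains. Pdk1 had 37.2, 38.2 and 42.4 CPM in CKO brains and 36.1, 39.6 and 49.3 CPM in control brains. Both kinase genes overlapped between the groups. Per kilobase, Ldha took 48.9, 44.5 and 48.7% of the dehydrogenase pair in CKO brains and 41.8, 44.3 and 44.96% in control brains, so that both genes of the pair had similar shares in either genotype.

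Transporters, phosphofructokinases and the other related genes were not called in brain either. Slc2a1 had 76.8, 71.98 and 71.2 CPM in CKO brains and 78.7, 73.3 and 80.5 CPM in control brains. Slc2a3 had 27.1, 33.4 and 39.3 CPM in CKO brains and 33.1, 34.8 and 34.04 CPM in control brains. Hk1 had 91.6, 118 and 132 CPM in CKO brains and 105, 145 and 111 CPM in control brains. These transporters and the constitutive hexokinase overlapped between the groups. Pfkl had 80.3, 87.1 and 82.2 CPM in CKO brains and 83.1, 80.02 and 91.4 CPM in control brains. Pfkm had 85.8, 79.4 and 80.3 CPM in CKO brains and 84.3, 84.1 and 76.8 CPM in control brains. Pfkp had 66.04, 94.2 and 91.4 CPM in CKO brains and 67.9, 96.7 and 69.8 CPM in control brains. The phosphofructokinase genes overlapped as well. Eno2 had 23.8, 32.6 and 38.04 CPM in CKO brains and 21.8, 39.4 and 30.9 CPM in control brains. Slc16a3 had 7.72, 9.96 and 9.38 CPM in CKO brains and 7.73, 8.69 and 8.04 CPM in control brains. Slc16a3 thus had a narrow range in brain, beside 0.904 to 34.7 CPM in CKO neurospheres. P4ha1 had 33.5, 40.97 and 37.5 CPM in CKO brains and 30.8, 33.4 and 38.3 CPM in control brains. P4ha2 had 2.92, 8.03 and 5.73 CPM in CKO brains and 3.18, 6.21 and 6.93 CPM in control brains. Both subunit genes overlapped. Egln1 had 91.3, 81.3 and 87.9 CPM in CKO brains and 105, 89.6 and 89.05 CPM in control brains. Egln3 had 5.32, 6.75 and 6.60 CPM in CKO brains and 6.82, 7.98 and 9.30 CPM in control brains. Egln3 was lower in each CKO brain than in every control brain (log2 fold change -0.37 ± 0.21, adjusted p = 0.707). Groups without overlap made up 3 of 34 genes on the higher side and 2 on the lower side in brain, against 7.24% and 7.16% of all genes.

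The effect in neurospheres differed from that in brain for 8 of the 34 genes, tested as an interaction in 1 fit of all 12 libraries. Atp6ap2 itself was lower in CKO neurospheres (log2 fold change -0.81 ± 0.11, adjusted p = 0.00965) and was not called in brain. The part of this in the differences was not tested. Hk2, Gapdh, Eno1, Pkm, Ldha, Slc16a1 and Pdha1 had a larger log2 fold change in neurospheres, and Ldhb a smaller one. Of all 14415 genes tested, 7.21% had a larger and 6.06% a smaller log2 fold change in neurospheres. The median difference was 0.47 over the 34 genes and -0.02 over all genes. The difference was 1.18 ± 0.15 for Eno1 (adjusted p = 0.00282), 0.92 ± 0.14 for Slc16a1 (adjusted p = 0.00463), 1.02 ± 0.19 for Ldha (adjusted p = 0.00971) and 0.75 ± 0.14 for Pkm (adjusted p = 0.00875). Those 4 genes were called in all 12 fits that left out 1 library. On junction reads the calls of Slc16a1 (0.23), Hk2 (0.0689), Gapdh (0.0759) and Pdha1 (0.115) were lost, and with no filter on low counts those of Pdha1 (0.0577) and Ldhb (0.0558), with those adjusted p-values. Mxi1, called in neurospheres, did not pass in the difference (-0.84 ± 0.32, adjusted p = 0.103), nor did Pdk3 (adjusted p = 0.367).

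More of these genes were higher than lower in neurospheres relative to brain, in both genotypes. In CKO libraries, 19 of 34 genes were higher and 1 lower in neurospheres than in brain, against 38.4% and 37.7% of all genes. In control libraries 18 were higher and 2 lower, against 34.9% and 35.5%. The 34 genes had a median log2 fold change of 0.79 in CKO and 0.73 in control libraries, against 0.01 and -0.01 over all genes. Ldha, for example, was 5.54-fold higher in CKO neurospheres than in CKO brains and 2.73-fold higher in control neurospheres than in control brains. Gpi1 was 5.10-fold and Pdha1 4.67-fold higher in CKO neurospheres than in CKO brains, and they were 4.31-fold and 3.46-fold higher in control neurospheres than in control brains. Culture, a day of age, forebrain against whole brain and library makeup cannot be told apart in this comparison. Introns took 7.64 to 14.1% of gene reads in neurospheres and 63.8 to 65.5% in brains, and neurosphere libraries held more exon reads.

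Slc2a1 was lower in neurospheres than in brain in both genotypes. Its log2 fold change, neurosphere over brain, was -0.54 ± 0.20 in CKO libraries (adjusted p = 0.0318) and -1.44 ± 0.21 in control libraries (adjusted p = 8.73e-05). In CKO libraries the call was lost without CKO brain 1 (0.0868), CKO brain 2 (0.0678), CKO brain 3 (0.0638), CKO neurosphere 1 (0.0933) and CKO neurosphere 3 (0.102), given with the adjusted p, and with no filter on low counts (0.0564). Blood vessels carry much Slc2a1, and the summed level of 8 endothelial markers was 10.3 to 12.0 CPM in CKO and 6.13 to 8.66 CPM in control neurospheres. In brains it was 281 to 336 CPM in CKO and 268 to 304 CPM in control samples. Together, 9 erythroid markers summed to at most 2.99 CPM in neurospheres, with Hbb-bt and Alas2 at 0 in both groups, and to 1574 to 2211 CPM in CKO and 1250.1 to 1704 CPM in control brains. Microglia markers summed to at most 1.93 CPM in neurospheres, and to 78.4 to 102 CPM in CKO and 52.3 to 67.2 CPM in control brains. The part of these cells in the Slc2a1 level was not tested. Pfkp was also lower in control neurospheres than in control brains (-0.60 ± 0.22, adjusted p = 0.029), a call lost without control brain 2 (0.142), control neurosphere 2 (0.0916) and control neurosphere 3 (0.082) and with no filter (0.0508). Hk2 was higher in CKO neurospheres than in CKO brains (1.40 ± 0.27, adjusted p = 0.000595) and did not pass in control libraries (-0.05 ± 0.28, adjusted p = 0.884).

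Per length of transcript and over all exon reads, Eno1, Pkm, Pgk1 and Pgam1 were the most abundant of the 34 genes in each of the 4 groups. On uniquely placed reads Pkm, Pgk1 and Pgam1 stayed at the top. Eno1 then ranked 8 in CKO neurospheres and 11 in control neurospheres, CKO brains and control brains. RPKM are CPM per kilobase of exon, for all exon reads scaled over all 12 libraries. On uniquely placed reads they were scaled apart for neurospheres and brains. Those values therefore rank genes within a group, and are not to be set between neurospheres and brains or against values over all exon reads. In CKO neurospheres Eno1 averaged 558 ± 78.7 RPKM, Pkm 467 ± 53.3 and Pgk1 447 ± 102 (SD, n = 3). The ranges of ± 1 SD of the 3 genes touch or overlap. Most Eno1 reads were not uniquely placed, and on uniquely placed reads it averaged 134 ± 18.6 RPKM in CKO neurospheres and 59.2 ± 5.58 RPKM in control neurospheres, below Pkm, Pgk1 and Pgam1 in both, so its place in the order is uncertain. In control neurospheres Pgk1 averaged 277 ± 58.4 RPKM, Pkm 266 ± 20.1 RPKM and Eno1 241 ± 20.9 RPKM. Ldhb, at 124 ± 9.61 RPKM, stood below Ldha in CKO neurospheres, and in control neurospheres it stood above, at 207 ± 42.3 RPKM for Ldhb and 136 ± 18.4 RPKM for Ldha. In CKO brains Pkm led with 161 ± 8.34 RPKM and in control brains with 154 ± 9.00 RPKM, above Eno1 at 108 ± 2.79 and 106 ± 6.26 RPKM. On uniquely placed reads Eno1 averaged 31.2 ± 1.16 RPKM in CKO brains and 28.9 ± 2.56 RPKM in control brains. Not all later enzymes had a high counted level. Gapdh averaged 102 ± 8.86 RPKM in CKO neurospheres and 63.3 ± 9.09 RPKM in control neurospheres. Gpi1 of the early steps stood above it, at 246 ± 72.2 and 197 ± 29.04 RPKM. Whether reads that fit many places in the genome lower the counted level of Gapdh was not tested. Transporters, hexokinases and phosphofructokinases stood lower than Gpi1. Hk2 averaged 11.1 ± 3.61 RPKM in CKO neurospheres and 3.10 ± 0.846 RPKM in control neurospheres, beside Hk1 at 29.9 ± 2.85 and 30.5 ± 1.10 RPKM.

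**Figure D5:**
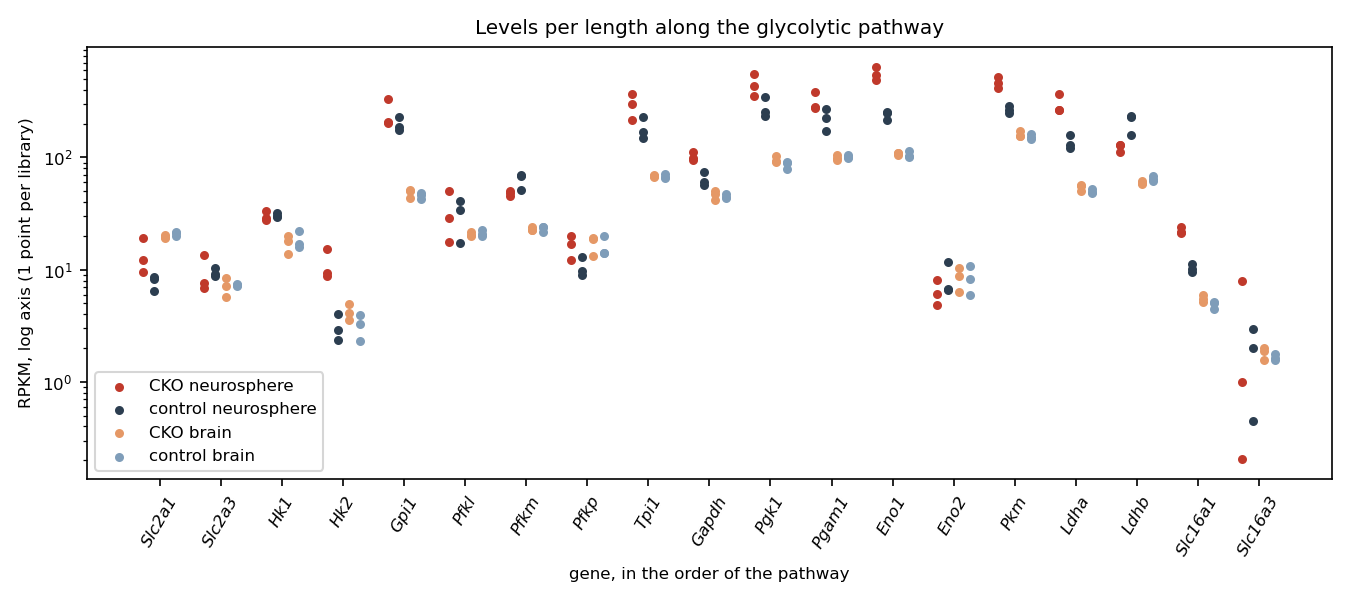
RPKM of 19 genes along the pathway, from glucose transporters to lactate transporters, on a log axis with 1 point per library and CKO neurospheres, control neurospheres, CKO brains and control brains side by side. In CKO neurospheres Eno1, Pkm and Pgk1 stand far above the transporters and hexokinases, and neurosphere points lie above brain points for Gpi1, Tpi1, Pgk1, Pgam1, Eno1, Pkm and Ldha.

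Reads inside a gene but outside its exons come mostly from unspliced transcripts, and they gave another readout of the same genes. In neurospheres 33 of the 34 genes had enough intron reads, and 2 were called higher and 1 lower in CKO, against 1.19% and 0.794% of the 11836 genes tested. Gapdh had 122, 107 and 84.1 intron CPM in CKO neurospheres, against 44.9, 31.3 and 51.7 intron CPM in control neurospheres (log2 fold change 1.28 ± 0.23, adjusted p = 0.0446). Gapdh overlaps Iffo1 by the listed coordinates, so these reads may belong in part to Iffo1. Egln1 had 92.7, 97.95 and 77.8 intron CPM in CKO neurospheres, against 52.5, 46.98 and 48.3 intron CPM in control neurospheres (0.86 ± 0.17, adjusted p = 0.0476), and did not pass over exons. Ldhb, with 115, 113 and 105 intron CPM in CKO and 166, 220.1 and 197 intron CPM in control neurospheres, fell over introns too (-0.81 ± 0.16, adjusted p = 0.0469).

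Other enzymes called over exons did not pass over introns. The log2 fold change of intron reads was 1.86 ± 0.52 for Hk2 (adjusted p = 0.0908), 1.13 ± 0.24 for Eno1 (adjusted p = 0.0505), 0.74 ± 0.17 for Pkm (adjusted p = 0.0612) and 0.54 ± 0.27 for Ldha (adjusted p = 0.281). Each intron call stood in 1 of 6 fits that left out a library, the one without control 1. Without control 2, control 3, CKO 1, CKO 2 or CKO 3 the adjusted p of Gapdh, Egln1 and Ldhb lay between 0.0544 and 0.211. In brain, edgeR called 0 of the 34 genes over introns. Of the genes tested there, 0.138% were called higher and 0.167% lower. The unadjusted p was below 0.05 for 3 of the 34 genes, against 7.24% of all. Pfkp had a large intron share, 51.3, 35.9 and 39.8% of its reads in CKO and 67.9, 62.7 and 63.8% in control neurospheres. By listed coordinates it overlaps Pitrm1.

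Genes of neighbouring pathways were counted by list. Of 18 genes of the citric acid cycle, which burns the acetyl groups that pyruvate dehydrogenase makes, 12 were called higher and 0 lower in CKO neurospheres (median log2 fold change 0.43). Beside this and the next counts stand the 14.7% higher and 12.0% lower of all genes tested. Idh3a, Fh1, Idh2 and Suclg2 had the largest changes, from 0.73 for Suclg2 to 0.98 for Idh3a. Of 8 pentose phosphate pathway genes, 3 were higher, namely Pgd (0.61 ± 0.09, adjusted p = 0.0103), Rpia and Taldo1, and 0 lower. Among 25 further genes of glycolysis and pyruvate use, 6 were higher and 4 lower. The 4 lower genes had the largest changes of those called. They were Ldhd, a dehydrogenase of D-lactate (-1.95 ± 0.43, adjusted p = 0.0223), Pdk2 (-1.18 ± 0.29, adjusted p = 0.0296), Eno3 (-1.15 ± 0.22, adjusted p = 0.017) and Pdp1, the phosphatase that reactivates pyruvate dehydrogenase (-0.97 ± 0.13, adjusted p = 0.00959). Ldhd was very low, at 0.556, 0.275 and 0.232 CPM in CKO and 1.38, 1.45 and 1.35 CPM in control neurospheres. The 6 higher genes were Tigar (log2 fold change 0.92), Adpgk (0.75), Dlat (0.72), Dld (0.37), Pdhx (0.32) and Pdhb (0.31). Over all 25 genes of that list the median was -0.40, below the 0.34 of the 34 genes.

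Among the factors that sense oxygen, 1 gene passed. Of 12 genes, 1 was called higher in CKO neurospheres, Cul2 of the ligase that degrades HIF1A (0.30 ± 0.08, adjusted p = 0.0356), and 0 lower. Hif1a stood at 184, 194 and 200.04 CPM in CKO neurospheres, against 164, 175 and 173 CPM in control neurospheres (0.17 ± 0.08, adjusted p = 0.142). Its protein, which oxygen controls, was not measured. Among 26 further hypoxia-inducible genes, 3 were higher and 4 lower, with a median of 0.05, shares near the 14.7% and 12.0% of all genes tested. The largest changes were those of Angptl4, a secreted inhibitor of lipoprotein lipase (-3.54 ± 0.69, adjusted p = 0.0177), Wsb1 (-1.33 ± 0.11, adjusted p = 0.00754), Plod2 (0.72 ± 0.20, adjusted p = 0.0396) and Kdm4b, a histone demethylase (-0.67 ± 0.16, adjusted p = 0.0288).

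In brain, 2 genes of these lists were called, both lower in CKO, as were 0.199% of all genes. Aldoc, the aldolase of astrocytes and radial glia, had 31.4, 22.5 and 32.1 CPM in CKO brains, against 51.6, 54.6 and 60.99 CPM in control brains (-0.96 ± 0.13, adjusted p = 0.0159). Ppp1r3c, which targets a phosphatase to glycogen, had 3.77, 4.02 and 4.69 CPM in CKO brains, against 9.55, 10.5 and 10.6 CPM in control brains (-1.29 ± 0.20, adjusted p = 0.0292). In neurospheres neither passed, with log2 fold changes of -1.34 ± 0.52 for Aldoc and -1.10 ± 0.67 for Ppp1r3c. The Aldoc call was lost without control brain 1 (0.0566), control brain 2 (0.0763) and control brain 3 (0.132), and the Ppp1r3c call without control brain 1 (0.0815), control brain 2 (0.148), control brain 3 (0.156), CKO brain 1 (0.0519), CKO brain 2 (0.0858) and CKO brain 3 (0.0692). In 1 fit of all 12 libraries neither was called (adjusted p = 1 for both), and 1 of all genes was called in brain. Astrocyte markers, with 2 of 6 called lower, Aldoc among them, summed to 527 to 575 CPM in CKO and 557 to 572 CPM in control brains. Stem cell and radial glia markers, with 1 of 8 called lower, summed to 1305 to 1576 CPM in CKO and 1369 to 1494 CPM in control brains. Of 7 microglia markers 1 was called higher, against 0.243% of all genes. The part of these cells in the 2 changes was not tested.

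In the authors' deposited table, with an FDR below 0.05, 9 of the 34 genes were higher and 3 lower in CKO neurospheres, and 0 in brain. Of all 25655 genes listed in the authors' deposited table, unexpressed ones included, 5.84% passed as higher and 5.05% as lower in neurospheres, and 0.308% and 0.257% in brain. Of the calls here, 6 of 8 higher and 2 of 2 lower genes were among them. Pgk1, Slc2a1 and Tpi1 (higher) and Bnip3l (lower) passed in the authors' deposited table and not here, and Pdk3 and Pdha1 passed here and not in the authors' deposited table.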

How the data were processed

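Per the labels' protocols, total RNA was depleted of ribosomal RNA and made into libraries with a directional kit. The builds GRCm38 and mm10 appear in the submitters' processing notes, while the aligner and the strand setting are not named in any source used here. The tables list coordinates that match no gene of GENCODE M21 at both ends (0 of 25600). With the listed start raised by 1 base 564 genes matched, so no listed coordinate is printed. Per gene and library, the authors deposited raw counts of exon reads, uniquely placed exon reads, exon-exon junction reads and intron reads, and 3731 of 25655 listed genes without an exon length stayed out. The authors' deposited p-values and FDR values were made, per the file headers, by EDGE (tagwise dispersions), and their signed fold change is held as a score. A further 120 columns of per-sample values were not used.

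Exon counts as deposited were tested with edgeR 4.0.16 in R 4.3.3 (TMM scaling, filterByExpr, robust glmQLFit, two-sided glmQLFTest), with Benjamini-Hochberg adjustment over all genes tested and calls below 0.05. Each SE was derived from the F statistic (absolute log2 fold change over the root of F). Neurospheres and brains were fitted apart, 6 libraries each. The difference of effects and the comparisons of neurospheres with brain came from 1 fit of all 12. CPM are TMM-scaled, and RPKM divide them by the listed exon length. Intron counts were scaled and tested on their own. Sums of markers and isoenzyme shares were described without a test, since an exact permutation test of 3 against 3 cannot go below 0.1. Alternatives were RLE and upper-quartile scaling, DESeq2 1.42.0, other filters, other reads, a replicate block and each library left out. The edgeR comparison of CKO with control, apart for neurospheres and brains, was tried on simulated counts with the same spread set for every gene. Figures used matplotlib 3.10.9.

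Genes and lists were chosen with earlier results of these data known. Values in every library were given for genes called in neurospheres, in brain or in the difference, and for both genes of a related pair. Of each further list, up to 4 called genes with the largest change were named. The 6 higher genes of glycolysis and pyruvate use were named as well, after their values had been seen. Vegfa, Ndrg1, Bnip3, Ankrd37, Pgk1, Pgam1, Hif1a, Gpi1 and the other genes outside this rule were named to account for all 34, after their values had been seen.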

Additional observations from a re-analysis of the deposited data

Results flagged for a closer look

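For 8 genes the effect of the CKO on the log2 scale differed between neurospheres and brain by a test of the difference itself (interaction term, edgeR, adjusted over all genes). Atp6ap2 was itself called lower in CKO neurospheres and not called in brain. For Hk2 the difference was 1.44 ± 0.39 (adjusted p = 0.0335), from 1.84 in neurospheres and 0.40 in brain. Gapdh differed by 0.64 ± 0.16 (adjusted p = 0.0251), from 0.69 in neurospheres and 0.05 in brain. The value for Eno1 was 1.18 ± 0.15 (adjusted p = 0.00282), from 1.21 in neurospheres and 0.04 in brain. That of Pkm was 0.75 ± 0.14 (adjusted p = 0.00875), from 0.81 in neurospheres and 0.07 in brain. For Ldha the difference was 1.02 ± 0.19 (adjusted p = 0.00971), from 1.14 in neurospheres and 0.12 in brain. Slc16a1 differed by 0.92 ± 0.14 (adjusted p = 0.00463), from 1.11 in neurospheres and 0.19 in brain. The value for Pdha1 was 0.43 ± 0.12 (adjusted p = 0.0323), from 0.36 in neurospheres and -0.07 in brain. That of Ldhb was -0.64 ± 0.18 (adjusted p = 0.0441), from -0.74 in neurospheres and -0.10 in brain. Every CKO neurosphere library lay above every control neurosphere library for the first 7 genes and below for Ldhb. Of all genes tested in neurospheres, 25.3% lay above and 22.8% below in this way. The 8 genes were picked on the same counts, so this order adds no support. Eno1, Pkm, Ldha and Slc16a1 stood in all 12 fits with 1 library left out, Hk2 and Gapdh in 6, Pdha1 in 3 and Ldhb in 1. Adjusted p-values over these fits ran from 0.0313 to 0.0885 for Hk2, 0.0183 to 0.0781 for Gapdh, 0.0119 to 0.0836 for Pdha1 and 0.0004 to 0.0994 for Ldhb.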

How the results depend on the processing

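No gene that passed the threshold changed sign under any alternative run. In neurospheres, where 8 genes were called higher and 2 lower, DESeq2 called 13 higher and 4 lower, and 1 fit of all 12 libraries called 14 and 4. Upper-quartile scaling and junction reads gave 4 lower genes, as did leaving out both libraries numbered 1, with or without the block. With 1 library left out, 0 to 10 genes were higher and 0 to 4 lower. Over all genes, calls in neurospheres numbered 1958 higher and 1595 lower of 13316. DESeq2 called 2482 and 2168 of 17415, and the fit of all 12 called 2935 and 2813 of 14415. Upper-quartile scaling called 1750 and 1752 of 13316, and junction reads 1349 and 1138 of 10911. There were 3740 and 3633 of 13328 without both libraries numbered 1. There were 532 and 266 of 13511 without control 2, and 855 and 504 of 13543 without CKO 3. Leaving out a library also leaves fewer samples, and otherwise the cause was not tested.

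For the difference of effects (7 larger, 1 smaller), no filter on low counts left 0 smaller, junction reads 3 larger, and leave-out fits 4 to 8 larger and 0 to 4 smaller. Of all genes, 727 of 18685 were smaller with no filter and 349 of 11450 larger with junction reads. Among the 34 genes, those lower in neurospheres than in brain numbered 2 (upper-quartile) and 0 (no filter) in CKO libraries, 0 to 2 with 1 library left out. In control libraries they numbered 1 with no filter and 1 to 2 with 1 left out. Intron reads of neurospheres gave 0 to 4 higher and 0 to 2 lower genes with 1 left out.

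Same-numbered CKO and control libraries deviated together only in part, with correlations of 0.263, -0.0308 and 0.262 in neurospheres and 0.416, 0.202 and -0.0448 in brain, and not every library correlated best with its own number. The numbers were therefore not taken as pairs. With the replicate number as a block, 10 of the 34 genes were higher and 4 lower in CKO neurospheres, beside 2072 and 1753 of all 13316. In CKO brains 1 was lower (Ndrg1), beside 85 of 13557, and in the difference 3 were smaller, beside 1107 of 14415. The block gave 2 lower genes in CKO neurospheres against CKO brain, beside 5545 of 14415. Over introns of neurospheres it gave 4 higher and 2 lower, beside 718 and 621 of 11836. The block also ended the call of Pdk3 between CKO and control neurospheres (0.0657). Calls of Hk2 in the difference (0.0572) and of Slc2a1 between CKO neurospheres and CKO brains (0.0512) were lost with it as well. Neurosphere libraries held 1099075 to 2042625 intron reads and brain libraries 9977408 to 12565046. The part of depth in the number of calls was not tested.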
